A study of Mus musculus with 10 samples.

Results

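Genes that direct osteoblast differentiation or build and mineralize bone matrix were followed in osteoblastic lineage cells (OBCs) sorted from the bones of 5 control and 5 BA mice, with 1 array per mouse. The 9 genes, Sp7, Dlx5, Pth1r, Alpl, Phospho1, Ibsp, Sparc, Cthrc1 and Ifitm5, were chosen by symbol from the 19938 genes on the array that have a probe set annotated to exactly 1 symbol. All 9 were measured, each by a single probe set, and no filter on low values was applied. BA mice carry the Scl-tTA and TRE-BCR/ABL transgenes, in which a transactivator driven by the Scl promoter switches on BCR/ABL once doxycycline is removed, and they develop a myeloproliferative neoplasm (MPN). The Scl promoter is active in blood stem and progenitor cells, so the oncogene is aimed at blood cells. Whether the sorted cells expressed it was not tested. Mice of both groups were C57BL/6 and were taken off doxycycline at 5 weeks of age, and bones were collected 5 to 6 weeks later. The labels call the other group Control and do not say which transgene, if any, those mice carried. Crushed bone was digested with collagenase, and the released cells were sorted once into Trizol after staining with antibodies to CD51, CD31, CD45, Sca-1 and blood lineage markers; the final gate is not given in the labels. RNA of 500 to 2300 cells per sample was amplified before hybridisation to Affymetrix Gene ST 1.0 arrays.

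Osteoblasts arise from mesenchymal progenitors under the transcription factor Runx2, which acts upstream of Sp7 (osterix). They secrete a collagen I matrix, and mineral is then laid down in it with the help of phosphatases that raise local phosphate. Parathyroid hormone acts on these cells through the receptor Pth1r. Several of the genes are also used by maturing cartilage cells of the growth plate, among them Sp7, Pth1r, Alpl and Phospho1.

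Levels are on the log2 scale, where a difference of 1 is a 2-fold change, and array medians lay between 5.91 and 6.02. Differences are BA minus control. They were tested with limma over all genes, and adjusted p-values use the Benjamini-Hochberg method with a threshold of 0.05. None of the 9 genes passed it. Over all genes 1 of 19938 (0.00502%) passed, the small nucleolar RNA gene Snord38a, named here after its value was seen. Of the 9 genes, 5 had a lower and 4 a higher mean in BA cells, and their median difference was -0.01, against -0.06 over all genes, of which 62.1% had a lower mean in BA cells. The number of arrays limits the precision. In sorted bulk samples, fewer cells of a type and less RNA per cell cannot be told apart.

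The samples carried bone matrix transcripts: Col1a1, the main collagen gene of bone, averaged 10.65 ± 0.33 (SD, n = 5) in control cells, and the bone matrix gene Ibsp 12.71 ± 0.08 (SD, n = 5). Which of the sorted cells made them was not tested. Control means of the 9 genes ran from 5.63 for Phospho1, below the array medians, to 12.99 for Sparc. Sp7 averaged 7.74 and Ifitm5 7.26. The samples also carried cartilage transcripts, with the mean of 11 chondrocyte markers between 10.14 and 11.06 on the 10 arrays. The mean of 3 markers of hypertrophic (maturing) chondrocytes lay between 8.37 and 9.87. The mean of 6 endothelial markers lay between 5.07 and 5.60 and that of 6 osteoclast markers between 5.70 and 6.16. The mean of 8 pan-haematopoietic markers lay between 5.77 and 7.22 in control cells and between 6.35 and 8.81 in BA cells, highest on BA replicate 5. Runx2, Bglap and Spp1 were not analysed here.

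Promoter sequences are shown for 4 of the genes whose array patterns differ in the results below. Ifitm5 is the one gene with all BA arrays below all control arrays, Ibsp hardly varied between mice, and Phospho1 and Pth1r varied with the level of cartilage markers. Each run is the 250 bases before the start of transcription, read 5′ to 3′ on the gene's strand, from RefSeq with build GRCm38.p6. The Ifitm5 window is chr7:140950244-140950493 on the minus strand, the Ibsp window chr5:104299037-104299286 on the plus strand, the Phospho1 window chr11:95824250-95824499 on the plus strand, and the Pth1r window, the outermost of 3 starts, chr9:110747146-110747395 on the minus strand. Capitals mark matches on either strand to a few short elements of promoters. One is the GC box, spelled GGGCGG and bound by Sp family factors. Another is the CCAAT box, searched as its own letters. The last is the TATA box near the start of transcription, spelled TATAAA here.
Ifitm5: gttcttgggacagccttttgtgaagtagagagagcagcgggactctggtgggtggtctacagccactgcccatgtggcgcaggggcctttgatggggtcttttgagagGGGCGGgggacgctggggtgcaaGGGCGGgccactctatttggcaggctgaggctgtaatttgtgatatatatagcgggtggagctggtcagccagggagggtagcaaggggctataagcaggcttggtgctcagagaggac
Ibsp: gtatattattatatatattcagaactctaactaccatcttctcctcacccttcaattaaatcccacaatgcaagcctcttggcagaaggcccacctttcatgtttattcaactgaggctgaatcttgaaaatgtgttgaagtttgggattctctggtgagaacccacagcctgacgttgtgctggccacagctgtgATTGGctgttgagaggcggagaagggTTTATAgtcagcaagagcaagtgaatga
Phospho1: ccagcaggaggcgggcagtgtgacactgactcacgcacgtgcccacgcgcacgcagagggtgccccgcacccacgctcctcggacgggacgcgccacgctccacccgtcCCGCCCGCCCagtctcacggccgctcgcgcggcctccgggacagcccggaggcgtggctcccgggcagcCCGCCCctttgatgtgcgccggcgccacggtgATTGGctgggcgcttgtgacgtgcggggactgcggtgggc
Pth1r: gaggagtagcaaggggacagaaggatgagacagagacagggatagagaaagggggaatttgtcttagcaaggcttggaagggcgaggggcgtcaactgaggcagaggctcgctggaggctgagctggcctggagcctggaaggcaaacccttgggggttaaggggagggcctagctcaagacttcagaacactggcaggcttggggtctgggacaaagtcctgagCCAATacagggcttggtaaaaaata

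The Ibsp window held a TATA box 28 to 23 bases and a CCAAT box 54 to 50 bases before the start. Among all 32851 windows of this length, 12.4% held the TATA letters and 33.8% the CCAAT letters. Phospho1 held 3 GC boxes, of which 2 overlap, and 1 CCAAT box, and Ifitm5 held 2 GC boxes. At least 1 GC box was present in 32.7% of all windows. The Pth1r window shown held 1 CCAAT box, 25 to 21 bases before the start, and 0 GC boxes. Windows at the other Pth1r starts, not shown, held 1 and 4 GC boxes and 0 CCAAT boxes. Their GC content was 65.6% and 70.4%, and which start these cells used was not tested. Windows were found for 6 of the 9 genes, 9 windows in all, and none held the Runt core on either strand, spelled ACCACA and found in 14.0% of all windows. None held the homeodomain core either, which is spelled TAATTA and found in 4.84% of all windows. GC content was 43.6% for Ibsp, 58.8% for Ifitm5 and 75.6% for Phospho1, with a median of 52.4% over all windows. Sp7, Dlx5 and Cthrc1 had no entry.

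Among the transcription factors, Sp7, the zinc-finger factor needed to form osteoblasts, read 6.88, 7.81, 6.73, 8.38 and 8.88 on control replicates 1 to 5 and 7.90, 8.15, 7.57, 8.26 and 6.94 on BA replicates 1 to 5. The control mice held both the lowest and the highest values, and all BA values fell between them. The control mean was 7.74 ± 0.93 and the BA mean 7.76 ± 0.53 (SD, n = 5 each). They differed by 0.03 ± 0.43 (SE), with a 95% interval from -0.92 to 0.98 (limma, adjusted p = 0.984). An interval this wide leaves room for nearly a 2-fold change either way. Dlx5, a homeodomain factor of the osteoblast lineage, read 8.32, 8.98, 8.71, 8.05 and 8.18 in control and 8.35, 7.71, 8.40, 8.92 and 7.39 in BA cells. BA replicates 2 and 5 lay below every control and BA replicate 4 near the top, so the groups overlapped. The difference was -0.29 ± 0.29 (SE, limma, adjusted p = 0.703), and it ran from -0.49 without BA replicate 4 to -0.10 without BA replicate 5.

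Pth1r, the receptor for parathyroid hormone and its related peptide, read 9.70, 9.11, 9.10, 9.80 and 10.94 in control and 9.89, 9.83, 9.65, 10.53 and 9.87 in BA cells. Control replicate 5 was the highest of the 10 arrays, and the BA values lay closer together (SD 0.34 against 0.75). The difference was 0.22 ± 0.33 (SE, limma, adjusted p = 0.798), and it ran from 0.067 without control replicate 3 to 0.53 without control replicate 5. It was 0.069 without control replicate 2 and 0.08 without BA replicate 4.

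The phosphatases gave the highest differences of the 9 genes. Alpl, the tissue-nonspecific alkaline phosphatase that breaks down the mineralization inhibitor pyrophosphate, read 9.78, 9.90, 9.74, 10.75 and 10.92 in control and 11.25, 10.54, 10.29, 10.70 and 10.66 in BA cells. All 5 BA arrays lay above the control mean of 10.22 ± 0.57, yet control replicates 4 and 5 stood level with them. The BA mean was 10.69 ± 0.35 (SD, n = 5 each). The difference was 0.47 ± 0.27 (SE), or 1.39-fold, with a 95% interval from -0.13 to 1.07 (limma, adjusted p = 0.563). Phospho1, the phosphatase that frees phosphate inside matrix vesicles, read 5.24, 5.98, 4.84, 6.16 and 5.91 in control and 5.29, 5.62, 5.47, 7.37 and 5.62 in BA cells. A single array, BA replicate 4, made its BA mean the higher one, and the other BA values lay within the control range. Most of its values lay below the array medians, and whether the probe set was above background was not tested. The difference of 0.25 ± 0.41 (SE, limma, adjusted p = 0.816) became -0.13 without that array.

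The matrix genes Ibsp and Sparc varied least. Ibsp, bone sialoprotein, an acidic protein that binds collagen and mineral, read 12.65, 12.67, 12.85, 12.73 and 12.66 in control and 12.81, 12.63, 12.69, 12.77 and 12.59 in BA cells. The groups interleaved, and the difference was -0.01 ± 0.08 (SE) with a 95% interval from -0.20 to 0.17 (limma, adjusted p = 0.957). Sparc, osteonectin, a collagen-binding protein of bone, read 12.99, 12.89, 13.09, 12.99 and 12.99 in control and 12.87, 12.90, 12.82, 12.96 and 12.84 in BA cells. All 5 BA arrays lay below the control mean and 3 lay below every control. The difference was -0.11 ± 0.08 (SE) with a 95% interval from -0.28 to 0.06 (limma, adjusted p = 0.599), and without control replicate 2 the groups no longer overlapped. Both genes were among the 34 with a mean level above 12, near the top of the scale. The median SD within groups was 0.10 over those 34 genes and 0.24 over all genes, so a narrow interval there covers the values as deposited, and compression of bright signals was not tested. Cthrc1, a secreted protein with collagen repeats that osteoblasts make, read 9.49, 8.74, 9.65, 9.83 and 9.13 in control and 9.35, 8.61, 8.72, 9.99 and 8.68 in BA cells. BA replicates 2, 3 and 5 lay below every control, while BA replicate 4 was the highest of all arrays. The difference was -0.30 ± 0.30 (SE, limma, adjusted p = 0.706), and it ran from -0.53 without BA replicate 4 to -0.18 without control replicate 4.

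Ifitm5, a small membrane protein of mineralizing osteoblasts that is mutated in a form of brittle bone disease, was the one gene of the 9 whose groups did not overlap. It read 8.30, 7.06, 6.84, 6.84 and 7.26 in control and 6.83, 6.67, 6.71, 6.48 and 6.73 in BA cells. The highest BA and the lowest control values were 0.01 apart, and control replicate 1 stood well above the other mice. The means were 7.26 ± 0.61 and 6.68 ± 0.13 (SD, n = 5 each). The difference was -0.58 ± 0.25 (SE), 1.49-fold lower in BA cells, with a 95% interval from -1.14 to -0.01 (limma, unadjusted p = 0.0456, adjusted p = 0.524), so it did not pass. Of all genes, 1.1% had all BA arrays below all control arrays and 5.27% were lower at an unadjusted p under 0.05 (9.4% in either direction). Without control replicate 1 the difference was -0.32.

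**Figure D1:**
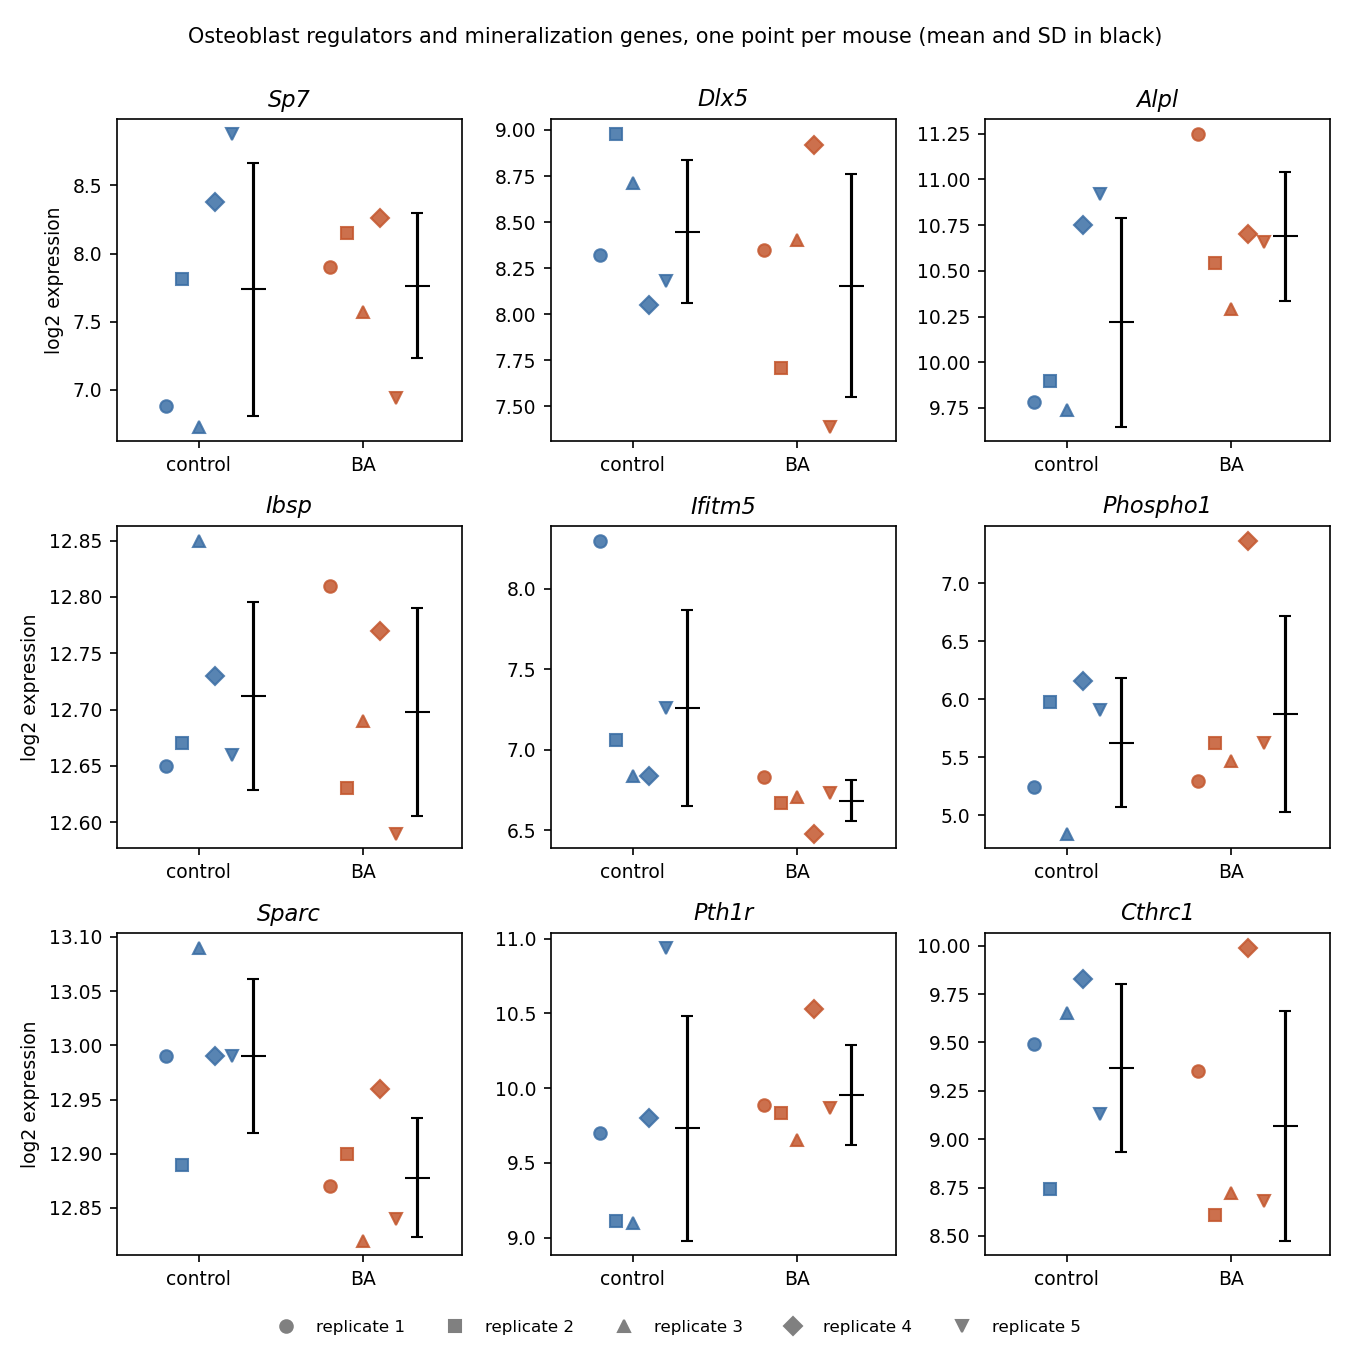
Log2 expression (vertical axes, each with its own range) of the 9 genes in control and BA mice, 1 point per mouse with the marker shape giving the replicate number and the mean and SD in black. Ifitm5 is the one gene with its groups apart, by 0.01, while Ibsp and Sparc each span less than 0.3 over all arrays.

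**Figure D2:**
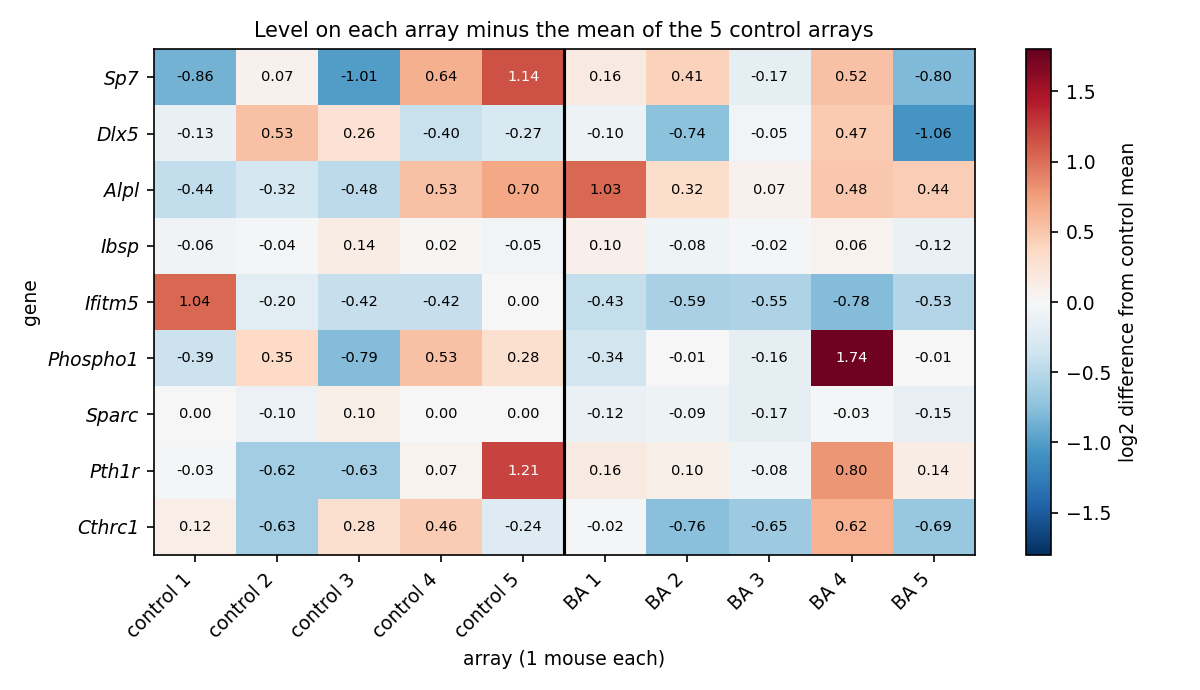
Level of each gene (rows) on each array (columns, 1 mouse each) minus the mean of the 5 control arrays, on the log2 scale, with red above and blue below. BA replicate 4 holds the largest single deviation, 1.74 for Phospho1, and the Ifitm5 row is below the control mean on all 5 BA arrays.

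A pair of BA mice stood at opposite ends. The mean of the 9 genes was highest on BA replicate 4, at 9.78, and lowest on BA replicate 5, at 9.04, with control arrays between 9.06 and 9.65. Gene by gene, control replicate 3 was the lowest of the 10 arrays for 4 genes and BA replicate 5 for 2. BA replicate 4 was also highest for the chondrocyte list (11.06), and BA replicate 5 for the pan-haematopoietic (8.81) and neutrophil lists (10.60). Without both arrays, 0 of the 9 genes passed the adjusted and 0 the unadjusted threshold. With the pan-haematopoietic mean as a covariate the difference of Dlx5 was -0.18, that of Cthrc1 -0.10 and that of Ifitm5 -0.64, and none passed.

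The wider osteoblast program was read from 5 further lists with 51 entries, of which 40 genes were measured and 0 passed the adjusted threshold. At an unadjusted p under 0.05, 7 were lower and 3 higher in BA cells, against 5.27% and 4.13% of all genes. Of the 7 other osteoblast transcription factors, 5 had a higher and 2 a lower mean and 0 had an unadjusted p under 0.05, with a median of 0.08. The differences were 0.45 ± 0.29 (SE) for Cbfb, the partner subunit of Runx factors, -0.22 ± 0.27 for Twist1, which restrains osteoblast differentiation, 0.08 ± 0.12 for the homeodomain factor gene Msx2 and 0.08 ± 0.16 for Atf4. In the bone matrix list all 6 measured genes were lower in mean, as were 62.1% of all genes, with a median of -0.79 and 4 of 6 at an unadjusted p under 0.05. The other members are Omd and Mepe, which differed by -0.25 ± 0.33 (SE) and -0.30 ± 0.23. Mepe lay below the array medians on every array, and whether it was above background was not tested. It read 4.93 on control replicate 5, 3.70 to 3.77 on the other controls and 3.46 to 3.89 in BA cells.

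Col1a1 read 10.08, 10.65, 10.89, 10.82 and 10.81 in control and 10.14, 9.18, 9.10, 10.20 and 8.36 in BA cells. BA replicates 2, 3 and 5 were far below every control, and BA replicates 1 and 4 overlapped the lowest one. Its difference was -1.25 ± 0.34 (SE, limma, adjusted p = 0.399). Col1a2, the partner chain of collagen I, read 10.49 to 10.78 in control and 8.50 to 10.28 in BA cells, with the groups apart and a difference of -1.16 ± 0.31 (SE, limma, adjusted p = 0.388). Postn (periostin) differed by -1.68 ± 0.74 (SE), by -1.07 without BA replicate 5 and by -1.09 with the pan-haematopoietic covariate. Dmp1, a matrix protein of osteocytes, differed by -0.42 ± 0.17 (SE). Markers of other stromal cells were lower in mean too, as were 62.1% of all genes. The mean of 6 stromal progenitor markers, all lower in BA cells, lay between 7.78 and 9.99 in control and between 6.60 and 8.24 in BA cells. The mean of 5 pericyte and smooth muscle markers, 4 of them lower, lay between 8.33 and 9.05 in control and between 7.08 and 8.05 in BA cells. The part of these stromal cells in the lower matrix levels was not tested. Some other lists went the other way. A higher mean in BA cells was seen for 10 of 11 chondrocyte, 7 of 8 pan-haematopoietic and 8 of 8 neutrophil markers.

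Each of the 9 genes was then set against Col1a1 on the same array, which shows unequal change and not which of the pair moved. The log2 ratio to Col1a1 was higher in BA cells for all 9 genes, from 0.68 for Ifitm5 to 1.72 for Alpl. Over all genes the median difference of this ratio was 1.19. For Alpl it ran from -1.15 to 0.11 in control and from 0.50 to 2.30 in BA cells, so the groups were apart (two-sided exact permutation test over 252 splits, p = 0.00794, the smallest it can give, and p = 0.0393 adjusted over all genes). Sp7, Dlx5, Ibsp, Sparc, Pth1r and Cthrc1 had the same adjusted p as Alpl. The share of all genes with groups apart in this ratio was not computed. For 8 of the 9 the exact p was under 0.05, between 0.00794 and 0.0317, and for Ifitm5 it was 0.278. The same test at an unadjusted p under 0.05 called 81.3% of all genes higher relative to Col1a1, so this holds for most genes on the array and is not particular to these 9. Without BA replicates 4 and 5 the number was 3 of 9. Fewer arrays give fewer splits and coarser p-values, so this number is not comparable with the 8 of 9. The share of all genes was not computed there. Col1a1 was known to be lower from earlier results of these data.

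Among 9 measured genes of mineral and phosphate handling, 1 was higher and 2 lower at an unadjusted p under 0.05, with a median of 0.11. Mgp, an inhibitor of calcification made by cartilage and vessel walls, read 12.15 to 12.50 in control and 12.67 to 12.83 in BA cells. The groups were apart, as for 0.567% of all genes in this direction, and the difference was 0.40 ± 0.09 (SE, limma, adjusted p = 0.384). Like Ibsp and Sparc, Mgp had a mean level above 12, where spread was small and compression of bright signals was not tested. Phex, a peptidase that protects mineralization, differed by -1.12 ± 0.44 (SE), the annexin gene Anxa6 by -0.39 ± 0.13 and Smpd3, a sphingomyelinase needed for bone mineralization, by 0.41 ± 0.28. Smpd3 was at 0.22 without BA replicate 4 and also without control replicate 3, and at 0.12 with the chondrocyte covariate. Among 9 measured genes of PTH receptor signalling the median was 0.12, and 1 was higher at an unadjusted p under 0.05. That gene was Prkar1a, a regulatory subunit of protein kinase A, with a difference of 0.59 ± 0.23 (SE). The differences were -0.48 ± 0.27 for Nr4a1, a nuclear receptor gene induced by cAMP, -0.34 ± 0.25 for the adenylyl cyclase gene Adcy6 and 0.54 ± 0.60 for Rgs2, a regulator of G protein signalling.

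Sp7, Sparc and Ifitm5 belong to the genes mutated in brittle bone disease (osteogenesis imperfecta), as do Col1a1 and Col1a2, which are counted with the bone matrix genes above. The list of other brittle bone genes, which leaves those collagens out, had 9 measured members and a median of 0.13. Serpinf1, a secreted factor (PEDF) whose loss impairs mineralization, read 9.76 to 10.15 in control and 8.57 to 9.60 in BA cells. Its groups were apart, with a difference of -0.85 ± 0.20 (SE, limma, adjusted p = 0.384). Creb3l1, a stress-activated factor that drives collagen I transcription, differed by 0.42 ± 0.17 (SE), the collagen lysyl hydroxylase gene Plod2 by 0.19 ± 0.10 and the collagen-folding gene Ppib by 0.21 ± 0.13. None of these passed over all genes.

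**Figure D3:**
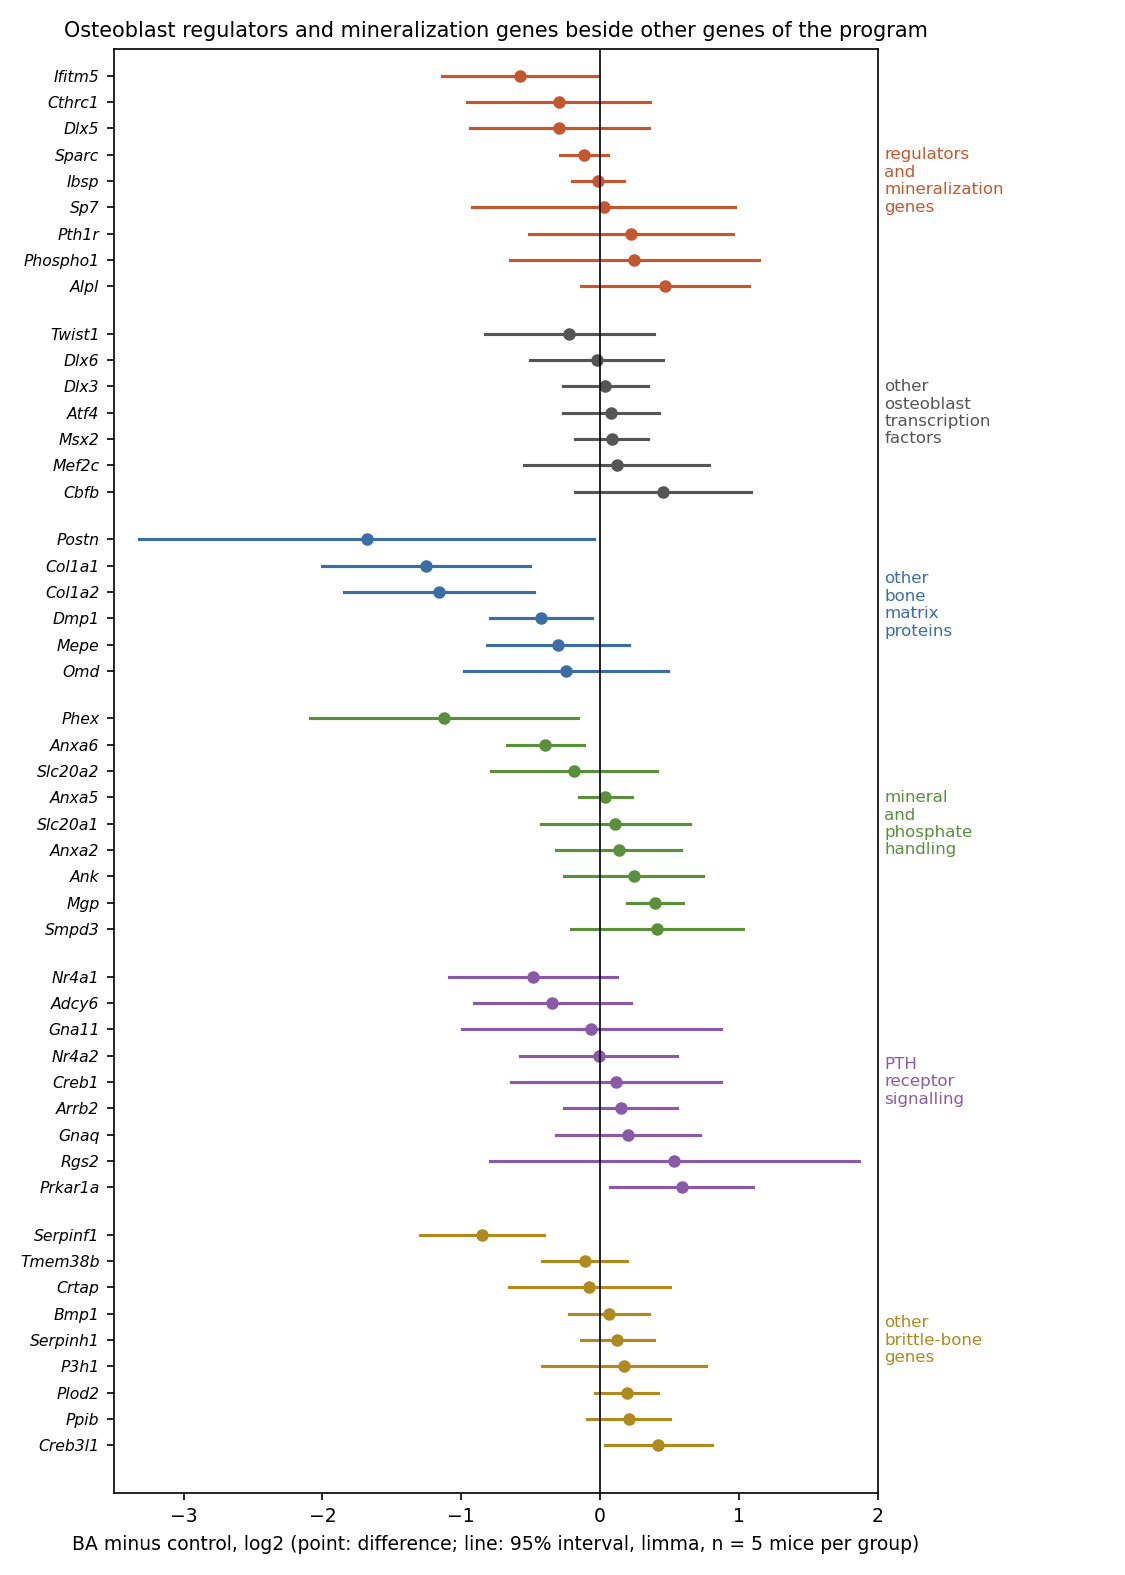
BA minus control difference on the log2 scale (points) with its 95% interval (lines, limma, 5 mice per group) for the 9 genes and the 40 measured genes of the 5 further lists. Intervals of 8 of the 9 genes cross 0 and that of Ifitm5 ends at -0.01, while those of Col1a1, Col1a2, Postn, Dmp1, Phex, Anxa6 and Serpinf1 lie wholly to the left of 0 and those of Mgp, Prkar1a and Creb3l1 to the right.

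Among themselves the 9 genes did not move as 1 block. Of the 36 pairs, 23 correlated positively across the 10 arrays, with a median Pearson's r of 0.07 and a range from -0.43 to 0.70. The pairs with the highest r were Sparc with Cthrc1 (r = 0.70, Spearman's rho = 0.63, permutation p = 0.0256 and 0.0560) and Alpl with Pth1r (r = 0.69, rho = 0.84, permutation p = 0.0254 and 0.00365). After adjustment over the 36 pairs none passed (lowest adjusted p for r = 0.302). Leaving out the 2 arrays farthest from the median of the first gene gave r = 0.66 and 0.63.

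Part of the spread went with cartilage transcripts. Sp7 correlated with the mean of the 11 chondrocyte markers across the 10 arrays (r = 0.79, rho = 0.82, permutation p = 0.00601 and 0.00553, adjusted p = 0.0487 and 0.0571 over 18 relations). Phospho1 did so too (r = 0.81, rho = 0.81, permutation p = 0.00570 and 0.00635, adjusted p = 0.0487 and 0.0571), as did Pth1r (r = 0.79, rho = 0.71, permutation p = 0.00811 and 0.0262, adjusted p = 0.0487 and 0.157). The adjusted p was thus just under 0.05 for r and above it for rho in each of the 3 genes. The share of all genes with such an r was not computed, so the link cannot be called particular to these genes. Leaving out the 2 arrays farthest from the median of the marker mean gave r = 0.74, 0.61 and 0.66, and after removing group means r was 0.83, 0.81 and 0.78. For Alpl r was 0.61 (rho = 0.58, permutation p = 0.0588 and 0.0884), and it was -0.39 for Ibsp, -0.28 for Sparc, -0.21 for Dlx5, -0.30 for Ifitm5 and -0.01 for Cthrc1, none of which passed. With the marker mean as a covariate, the difference of Sp7 was -0.39 ± 0.27 (SE), that of Phospho1 -0.14 ± 0.27, that of Pth1r -0.07 ± 0.24 and that of Alpl 0.30 ± 0.26, so the first 3 changed sign and none passed. Against the pan-haematopoietic mean the largest r was -0.62, for Sparc (rho = -0.64, permutation p = 0.0485 and 0.0518, adjusted p = 0.212 and 0.233).

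**Figure D4:**
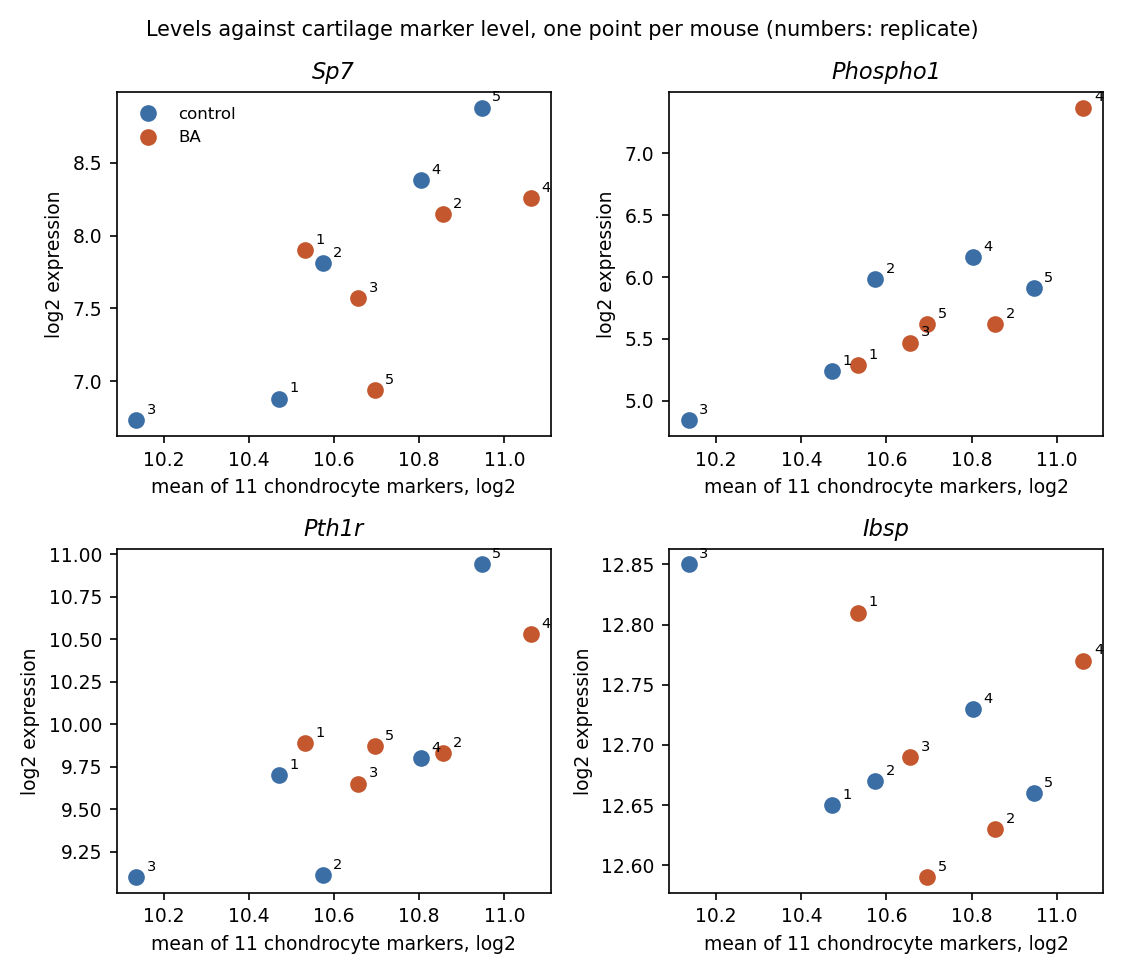
Log2 expression of Sp7, Phospho1, Pth1r and Ibsp (vertical axes) against the mean log2 level of 11 chondrocyte markers (horizontal axes), 1 point per mouse, numbered by replicate. The first 3 genes rise with the marker mean (r = 0.79, 0.81 and 0.79) and Ibsp does not (r = -0.39).

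The arrays fell into high and low classes of Xist, an RNA made from the silenced X of female cells. It was at 9.81 or more on 2 control and 3 BA arrays and at 5.08 or less on 3 control and 2 BA arrays. In control mice, Alpl lay between 9.74 and 9.90 on the 3 low-Xist arrays and at 10.75 and 10.92 on the high-Xist arrays, a difference of 1.03 (limma, adjusted p = 0.632). Sp7 was 1.49 higher on high-Xist controls (adjusted p = 0.825), and Pth1r 1.07 higher (adjusted p = 0.897). The BA minus control difference of Alpl was 0.96 within low-Xist and -0.20 within high-Xist arrays, and that of Sp7 was 0.60 and -0.85. As an interaction over all genes these gaps were -1.17 ± 0.36 (SE) for Alpl (limma, unadjusted p = 0.0104, adjusted p = 0.999) and -1.44 ± 0.64 for Sp7 (unadjusted p = 0.0527, adjusted p = 0.999), where 3.35% of all genes had an unadjusted p under 0.05. The high-Xist controls, replicates 4 and 5, were also the controls with the most chondrocyte marker signal (10.80 and 10.95, against 10.14 to 10.57). In BA mice the marker mean was likewise higher on the high-Xist arrays, at 10.70 to 11.06, than on the low-Xist arrays, at 10.53 and 10.66. Xist class and cartilage signal cannot be told apart in either group. Each class held 5 arrays, and correlations within a class were not computed. For Ifitm5 the difference was -0.63 within low-Xist and -0.42 within high-Xist arrays. Dlx5, Phospho1, Sparc and Cthrc1 also kept their sign across the classes, while Pth1r (0.47 and -0.29) and Ibsp (0.03 and -0.03) did not.

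**Figure D5:**
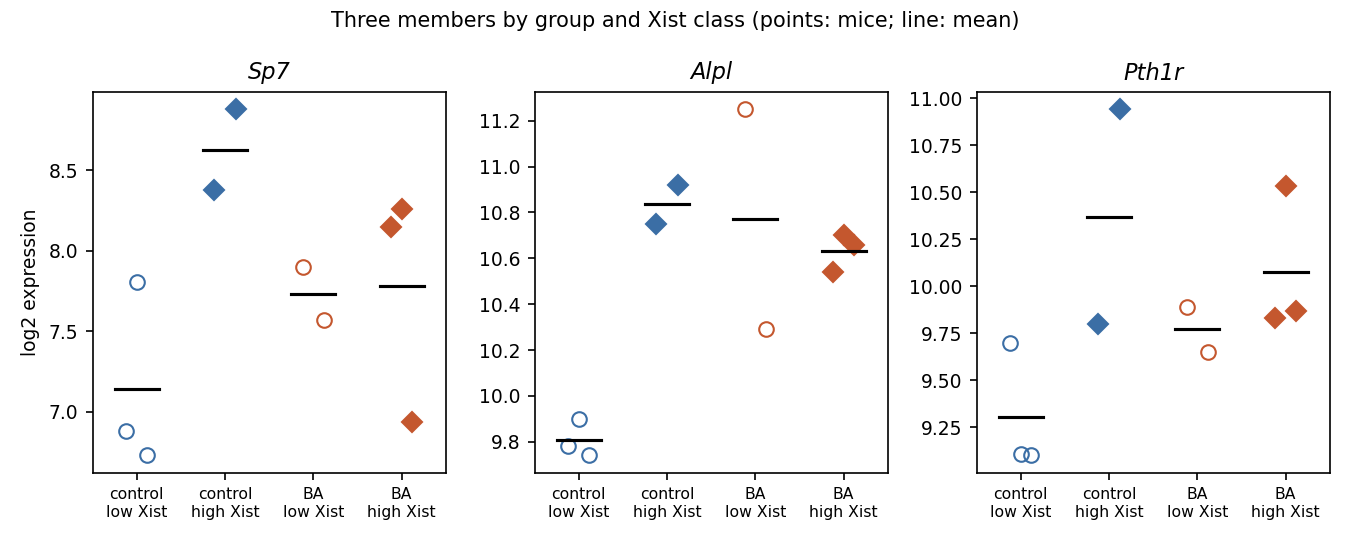
Log2 expression of Sp7, Alpl and Pth1r (vertical axes) in control and BA mice split by Xist class, with 1 point per mouse and a line at the mean. Low-Xist controls have the lowest mean for each gene, with Alpl at 9.74 to 9.90 there and at 10.29 or more elsewhere.

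The genes outside the 9 whose pattern was most like the mean of their standardised values over the 10 arrays were Thsd4 (r = 0.95), Rrp36 (r = 0.94), Mapk1ip1 (r = 0.94), Zfp985 (r = 0.94) and Creld1 (r = 0.92). These are the highest values of r over all other genes, given as a description with no test. Their own BA minus control differences lay between -0.16 and -0.07. Thsd4 averaged 5.81 in control and 5.69 in BA cells and Zfp985 3.22 and 3.10, below the array medians. Whether they were above background was not tested.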

How the data were processed

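Expression was measured in OBCs of 5 control and 5 BA mice. The authors deposited log2 values to 2 decimals for 35557 probe sets, between 1.21 and 13.7, with 0 missing values. Per the submitters' processing notes GCRMA was used, with no version named. Base 2 of the scale was read from the range of the values. GCRMA pulls dim probe sets towards a floor, and neither detection calls nor scanner files were used here. Of the probe sets, 21789 have 1 gene symbol, 1621 several and 12147 none in the platform annotation. Where a gene had several, the one with the highest mean level was kept, giving 19938 genes.

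The 2 groups were compared over all genes by lmFit and eBayes of limma 3.58.1 (R 4.3.3), two-sided and with no covariate. Intervals are at 95%. The fit was tested on simulated data. The members and lists were chosen with earlier results of these data known, so no test was run on a list. The named genes are the 9 members, the up to 4 genes of smallest p in each further list, Col1a1, Runx2 and Bglap where measured, and the 5 genes most like the members. Correlations used 100000 permutations of the arrays. Promoters came from RefSeq (GRCm38.p6). Alternatives were a replicate block, quantile normalization, median centring, a level filter, trend and robust eBayes, array weights, the mean of probe sets, a threshold of 0.10, covariates for pan-haematopoietic markers, chondrocyte markers and Xist class, and leaving out each array. Leaving out BA replicates 4 and 5, alone or with control replicate 5, was added after seeing the data.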

Additional observations from a re-analysis of the deposited data

Results flagged for a closer look

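Of 18 sets of 5 arrays (9 genes in 2 groups), 3 held an array far from the others. For independent, normally distributed values the rule flags about 1 in 20. The share over all genes was not computed, so the count is not a result about these 9 genes. Ifitm5 stood at 8.30 on control replicate 1, against 6.84 to 7.26 on the other controls. Phospho1 stood at 7.37 on BA replicate 4, against 5.29 to 5.62 on the other BA arrays. Pth1r stood at 10.53 on BA replicate 4, against 9.65 to 9.89. That array also had the highest mean of chondrocyte markers, 11.06, of the 10 arrays.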

How the results depend on the processing

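None of the 9 genes passed the adjusted threshold under any of the 23 alternatives (lowest adjusted p = 0.403, Ifitm5 without BA replicate 1). Dlx5, Alpl, Ifitm5, Sparc and Cthrc1 kept their direction in all of them. The median difference of the 9 genes ranged from -0.13 to 0.01 without single arrays. With quantile normalization the difference became -0.046 for Sp7, 0.0079 for Ibsp and -0.0021 for Atf4. It became 0.01 for Ibsp with median centring and 0.024 with the pan-haematopoietic covariate, which gave 0.014 for Twist1. The chondrocyte covariate gave -0.39 for Sp7, 0.0083 for Ibsp, -0.14 for Phospho1 and -0.075 for Pth1r, and the Xist covariate -0.13 for Sp7. Without single arrays or the 3 arrays named below, differences ranged from -0.22 to 0.42 for Sp7, -0.042 to 0.021 for Ibsp, -0.13 to 0.39 for Phospho1, -0.42 to 0.068 for Twist1, -0.027 to 0.17 for Atf4 and -0.18 to 0.83 for Rgs2. Those of Msx2 ranged from 0.014 to 0.16, Adcy6 from -0.52 to -0.21 and Ppib from 0.093 to 0.25 without single arrays. Without BA replicates 4 and 5 Phospho1 was at -0.17. Without these and control replicate 5 it was at -0.10, Twist1 at 0.068 and Rgs2 at -0.18. The cause was not tested.

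The number of genes past the threshold over all genes was 0 with the replicate block or among genes above the median level, 2 with the pan-haematopoietic or the Xist covariate, 11 without BA replicates 4 and 5, 10 without these and control replicate 5, and 0 to 13 without single arrays (13 without BA replicate 4). Of the 9 genes, the number with an unadjusted p under 0.05 was 1 in the main test and 0 with median centring, with each of the 3 covariates and without BA replicates 4 and 5, with or without control replicate 5. It was 0 to 2 without single arrays: 2 (Alpl and Pth1r) without control replicate 5, and 0 without control replicate 2 or any 1 BA array. The number with groups apart was 1 to 2. The number higher relative to Col1a1 was 8 without any single array, and 3 and 2 without these 2 and 3 arrays. Without these 2 and 3 arrays there were fewer splits and coarser p-values, and the share of all genes was not computed. The test was not run with covariates, the block or weights. Phospho1 was not among genes above the median level. The labels do not say whether replicate numbers pair the mice. Same-numbered deviations correlated between -0.10 and 0.11. Of 5 control and 5 BA arrays, 2 and 1 correlated best with their own number. These values cannot show that same-numbered mice shared no batch. With the replicate block Ifitm5 had an adjusted p of 0.562.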
